A study of Homo sapiens with 3 samples.

Results

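The 10 genes described here encode the main subunits of the transcription factor AP-1 and other immediate early transcription factors: FOS, FOSB, FOSL1, FOSL2, JUN, JUNB, JUND, ATF3, EGR1 and MYC. They were chosen by name, through their Ensembl identifiers, and all 10 had a row among the 24916 genes of the table. Expression was measured on 3 Affymetrix arrays of total RNA from MDA-MB-231-Luc cells, a derivative of an established triple-negative, mesenchymal-like breast cancer line. All arrays came from 1 group, a transduced pool (p1) in which a lentivirus with short hairpin TRCN0000047025 silenced RRAS2, the gene of the RAS-family GTPase R-Ras2 (TC21). The cells were growing exponentially, and the labels call the arrays biological replicates 1, 2 and 3. Cells with a control hairpin belong to the study's design too, but their arrays were not analysed here, and no effect of RRAS2 silencing was computed. The level of RRAS2 and of markers of the cell line was not looked up, since their identifiers were not paired with symbols, so the knockdown and the cell type rest on the labels. A single pool and a single hairpin limit the group as a model, and the labels used here give neither serum conditions nor the time since the last change of medium.

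AP-1 is a family of dimers. JUN proteins (JUN, JUNB, JUND) bind DNA as pairs with one another or with FOS proteins (FOS, FOSB, FOSL1, FOSL2), which do not form stable dimers among themselves, and ATF3, from the related ATF/CREB group, can also pair with JUN proteins. EGR1 is a zinc finger factor and MYC acts as a dimer with MAX. Immediate early genes such as FOS and EGR1 are transcribed within minutes of a growth factor signal, before new protein is made, through RAS, ERK and the serum response factor, while FOSL1 follows more slowly and its protein is stabilised by ERK. In aggressive breast cancer cells FOSL1 is known as an abundant AP-1 subunit.

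Of the 10 members, 9 were brighter than the middle gene of every array, against 48.6% of all genes. ATF3 was dimmer than it on all 3 arrays. A log2 scale was assumed for the deposited values, as RMA usually gives, and every fold below depends on it. That median, at 6.84, 6.81 and 6.80 in replicates 1, 2 and 3, divides brighter from dimmer signals and is no measured background. A gene above it is therefore not shown to be expressed, nor one below it silent. Signals of different genes also depend on their own probes, so the share of genes with a dimmer mean signal, given below for each member, places a signal on the array and does not rank transcripts.

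The 3 arrays of every member lay within 0.43 log2 units. The range, the highest minus the lowest array, had a median of 0.18 log2 units over the 10 members, against 0.16 over all genes. It went from 0.029 for FOS to 0.43 for JUND. For the 9 members above the median of every array it had a median of 0.22 units, against 0.17 over all genes above it. A range over 0.25 units, a 1.19-fold difference, was seen for 4 members (FOSB, FOSL2, JUNB and JUND), against 25.9% of all genes. A range over 0.5 units was seen for 0 of the 10, against 3.52% of all genes. In all 4 members with the wider ranges the low array was replicate 3, which was lowest for 37.9% of all genes. That share was not computed among genes with a range over 0.25 units. Without replicate 3, 8.99% of all genes had such a range, against 16.6% without replicate 1 and 13.7% without replicate 2. With 3 arrays of 1 group, no test was possible.

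**Figure D1:**
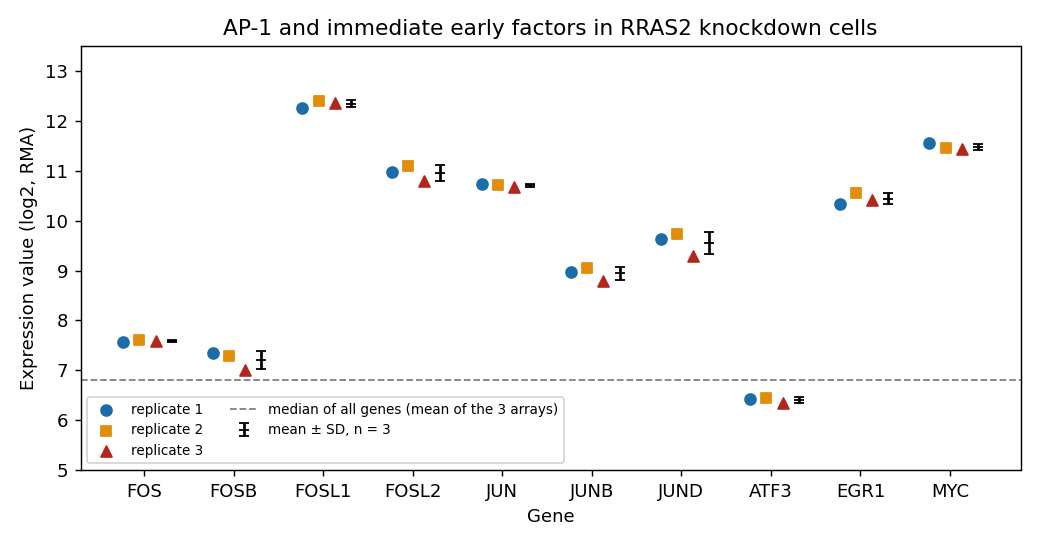
Expression values (log2, RMA) of the 10 genes, 1 point for each replicate array of RRAS2 knockdown cells, with the mean and SD (n = 3) beside them; the dashed line is the median of all genes, averaged over the arrays. FOSL1 lies between 12.26 and 12.39 on every array, ATF3 lies below the dashed line, and points of FOS and of JUN nearly coincide.

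In the FOS family, FOS had a narrow range over the replicates, FOSL1 an average one, and FOSB and FOSL2 wide ones. FOS (ENSG00000170345), the founding partner of JUN in AP-1, was at 7.57, 7.60 and 7.59 in replicates 1, 2 and 3, a mean of 7.59 ± 0.015 (SD, n = 3). Its range, 1.02-fold, was narrower than that of all but 1.93% of the 2492 genes in the same decile of mean level, and 58.9% of all genes were dimmer. The FOS range of 0.029 units became 0.059 with arrays centred on their medians and 0.045 with cyclic loess scaling. FOSB (ENSG00000125740), the closest relative of FOS and likewise an immediate early gene, was at 7.35, 7.28 and 7.00 in replicates 1, 2 and 3 (mean 7.21 ± 0.18, SD, n = 3). Replicate 3 was low by 0.35 units beside replicate 1 and by 0.28 beside replicate 2, while the other two differed by 0.064 units in size. The FOSB range exceeded that of 83.6% of genes in its decile, the same decile as that of FOS, and 54.6% of all genes were dimmer.

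FOSL1 (ENSG00000175592, also called FRA1) lacks the transactivation domain of FOS and is the FOS family member most often tied to invasive growth of breast cancer cells. It was at 12.26, 12.39 and 12.36 in replicates 1, 2 and 3, a mean of 12.34 ± 0.068 (SD, n = 3). No array stood far apart, and 98.5% of all genes gave dimmer signals. Its range of 0.13 units was near the median of its decile of genes, also 0.13. FOSL2 (ENSG00000075426, also called FRA2), the other FOS family member without that domain, was at 10.97, 11.10 and 10.79 in replicates 1, 2 and 3, with a mean of 10.96 ± 0.15 (SD, n = 3). Replicate 3 was again the low array, by 0.18 and 0.30 units beside replicates 1 and 2. The FOSL2 range of 0.30 units, 1.23-fold, was wider than that of 92.3% of genes in its decile, and 93.0% of all genes were dimmer.

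In the JUN family all 3 members were lowest in replicate 3, as were 37.9% of all genes, by amounts that differed widely. JUN (ENSG00000177606), the subunit with the strongest transactivation in the family, was at 10.73, 10.72 and 10.67 in replicates 1, 2 and 3, a mean of 10.71 ± 0.031 (SD, n = 3). These values lay within 0.055 units of each other, a range wider than that of 14.5% of genes in its decile (8.7% of the 1000 genes nearest in mean level), and 91.2% of all genes were dimmer. JUNB (ENSG00000171223), which can act against JUN on some targets, was at 8.98, 9.06 and 8.79 (mean 8.94 ± 0.14, SD, n = 3). It was lower in replicate 3 by 0.19 units beside replicate 1 and by 0.27 beside replicate 2, and its range exceeded that of 74.3% of genes in its decile. Its mean signal had 73.8% of all genes below it.

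JUND (ENSG00000130522), which in many cells is expressed steadily and depends less on growth signals than JUN and JUNB, had the widest range of the 10 genes. It was at 9.63, 9.72 and 9.30 in replicates 1, 2 and 3, with a mean of 9.55 ± 0.23 (SD, n = 3). Replicates 1 and 2 lay 0.091 units apart, and replicate 3 lay 0.34 units below the first and 0.43 below the second. Its mean over replicates 1 and 2 was thus 1.30-fold its value in replicate 3. Of the genes in its decile of mean level, 96.7% had a smaller range and 1.61% lay further down in replicate 3 against the mean of the other two. Of all genes, 80.5% were dimmer than JUND.

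**Figure D2:**
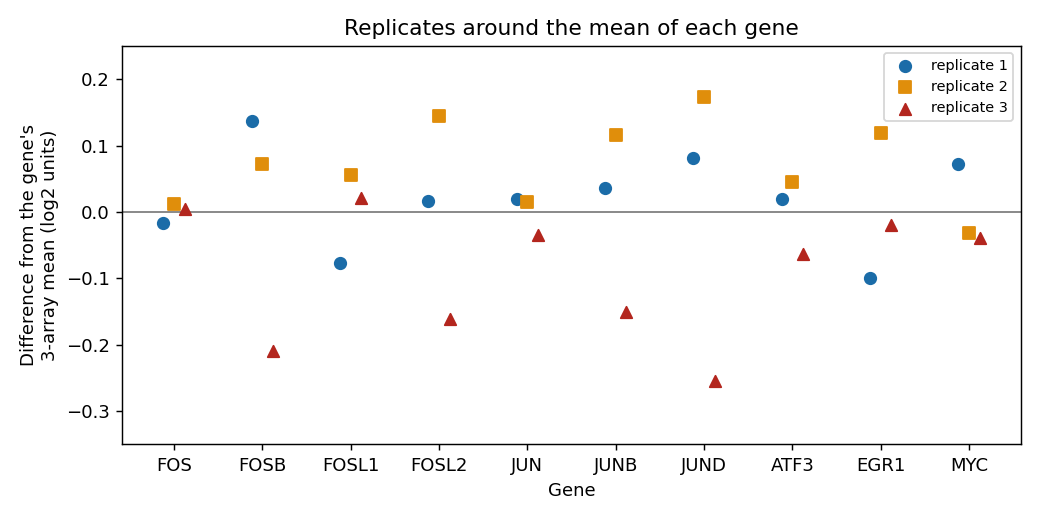
Difference of each replicate array from the gene's own mean over 3 arrays (log2 units), for the 10 genes. FOSB, FOSL2, JUNB and JUND have replicate 3 well below the other two, while EGR1 and FOSL1 have replicate 1 lowest and FOS and JUN lie near 0.

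ATF3 (ENSG00000162772), a stress-induced partner of JUN proteins, was at 6.43, 6.46 and 6.35 in replicates 1, 2 and 3 (mean 6.41 ± 0.056, SD, n = 3). All values were below the array medians, and 44.8% of all genes were dimmer. Its replicates lay within 0.11 units, with replicate 3 lowest. Since its signal was near the middle of the array, expression of ATF3 in these cells could be neither shown nor dismissed. The same limit holds for FOS and FOSB, whose signals had 58.9% and 54.6% of all genes below them.

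EGR1 (ENSG00000120738), a direct target of ERK signalling through the serum response factor, was the member that differed most between replicates 1 and 2. It was at 10.34, 10.55 and 10.41 in replicates 1, 2 and 3, a mean of 10.43 ± 0.11 (SD, n = 3). Replicate 2 was 0.22 units above replicate 1, against a median absolute difference of 0.084 between these arrays over all genes. FOS, the other classical target of that route, differed by 0.029 units between the same arrays. Its signal was much dimmer, with 58.9% of all genes below it, so the 2 differences are not at like levels. The EGR1 range exceeded that of 67.7% of genes in its decile, and 89.1% of all genes were dimmer. MYC (ENSG00000136997), which drives growth and ribosome production, was at 11.55, 11.45 and 11.44 in replicates 1, 2 and 3 (mean 11.48 ± 0.062, SD, n = 3). The arrays lay within 0.11 units, 1.08-fold, with replicate 1 highest, and 95.7% of all genes gave dimmer signals.

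**Figure D3:**
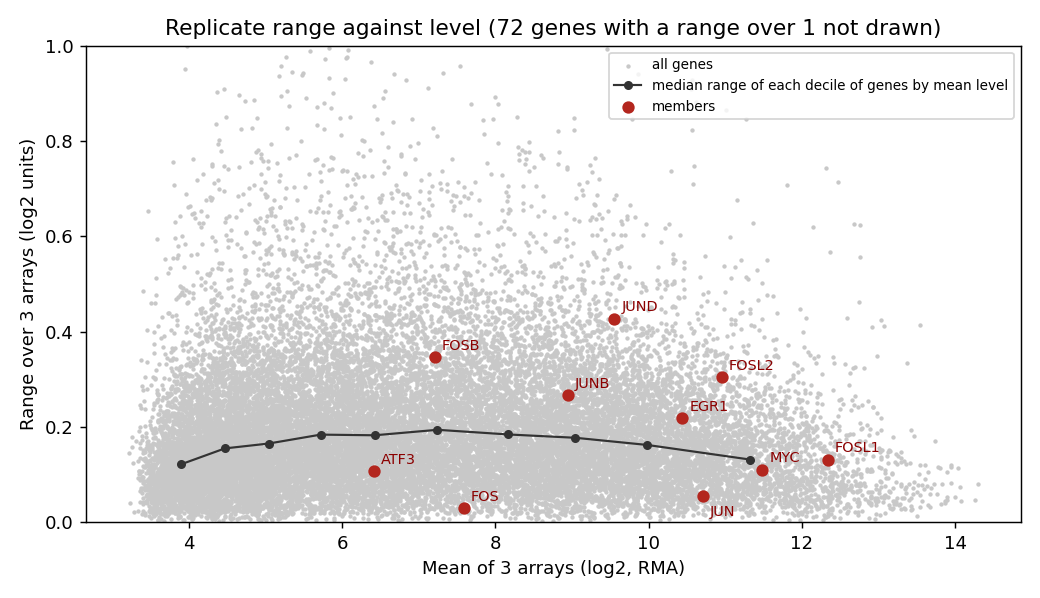
Range over the 3 arrays (log2 units) against the mean of the 3 arrays (log2) for all genes in grey and the 10 members in red; the line joins the median range of each decile of genes by mean level, and genes with a range over 1 are not drawn. JUND, FOSB, FOSL2, JUNB and EGR1 lie above the line, and FOS and JUN lie far below it.

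Across the set, replicate 3 was lowest for 7 of 10 members, against 37.9% of all genes, and highest for 0, against 35.2%. Replicate 2 was highest for 7 members, against 33.0% of all genes, and lowest for 0, against 34.7%. Replicate 1 was highest for FOSB, JUN and MYC, 3 members against 31.8% of all genes, and lowest for FOS, FOSL1 and EGR1, 3 members against 27.4%. Among the 7 members lowest in replicate 3, the difference was small for 3: MYC lay 0.0065 units below replicate 2, JUN 0.051 below replicate 2, and ATF3 0.083 below replicate 1. For the other 4 (FOSB, FOSL2, JUNB and JUND) replicate 3 was more than 0.1 units below both other arrays, as it was for 15.9% of all genes. The median over members of replicate 3 minus the mean of replicates 1 and 2 was -0.077 units, against -0.0068 over all genes. Replicate 3 was also the outermost of the 3 values, measured from the middle one, for 6 members and for 41.7% of all genes. Above the median it was so for 5 of 9 members and for 6051 of 12111 genes. Whether the RNA or array behind replicate 3 had a part in the lower values of these 4 genes was not tested. Without replicate 3, 0 members had a range over 0.25 units, against 8.99% of all genes. Without replicate 2 the count was 2 (FOSB and JUND), against 13.7% of all genes, and without replicate 1 it was 4, against 16.6%.

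The windows before the transcription starts of the 4 genes that were low together in replicate 3, and of FOS and JUN, the members with the smallest ranges as deposited, are printed below from RefSeq on GRCh38.p14. The build behind the array's probes is not given in the sources used here. Each is the 250 bases before the annotated start, in the gene's own direction. Capitals mark matches on either strand to TGACGT, the core of the cAMP response element, or to TGACNTCA, the longer ATF and JUN type of site.
JUND, chr19:18281623-18281872, minus strand: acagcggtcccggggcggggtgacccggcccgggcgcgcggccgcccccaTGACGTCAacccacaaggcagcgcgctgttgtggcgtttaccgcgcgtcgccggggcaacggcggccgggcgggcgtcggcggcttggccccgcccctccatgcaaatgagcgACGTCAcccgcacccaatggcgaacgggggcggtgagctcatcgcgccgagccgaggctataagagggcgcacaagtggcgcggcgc
JUNB, chr19:12791236-12791485, plus strand: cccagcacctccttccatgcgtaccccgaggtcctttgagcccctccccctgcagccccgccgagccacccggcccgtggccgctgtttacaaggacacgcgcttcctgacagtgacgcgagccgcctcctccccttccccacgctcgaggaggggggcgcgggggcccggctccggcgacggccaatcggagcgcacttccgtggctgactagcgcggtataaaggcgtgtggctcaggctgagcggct
FOSB, chr19:45467746-45467995, plus strand: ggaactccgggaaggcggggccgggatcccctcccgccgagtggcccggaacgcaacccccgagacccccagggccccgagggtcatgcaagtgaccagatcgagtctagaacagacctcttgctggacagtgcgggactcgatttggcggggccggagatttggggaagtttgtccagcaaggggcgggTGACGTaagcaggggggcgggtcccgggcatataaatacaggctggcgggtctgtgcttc
FOSL2, chr2:28392608-28392857, plus strand: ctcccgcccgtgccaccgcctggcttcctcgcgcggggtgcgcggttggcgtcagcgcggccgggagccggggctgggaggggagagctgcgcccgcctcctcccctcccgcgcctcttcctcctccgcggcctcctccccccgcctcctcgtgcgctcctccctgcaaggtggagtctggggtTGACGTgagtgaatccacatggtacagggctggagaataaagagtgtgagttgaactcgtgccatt
FOS, chr14:75278578-75278827, plus strand: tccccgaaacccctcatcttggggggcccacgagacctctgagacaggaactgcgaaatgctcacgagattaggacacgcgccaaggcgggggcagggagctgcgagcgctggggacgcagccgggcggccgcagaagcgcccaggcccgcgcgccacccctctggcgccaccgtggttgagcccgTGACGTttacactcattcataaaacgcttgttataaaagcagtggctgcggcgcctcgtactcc
JUN, chr1:58784048-58784297, minus strand: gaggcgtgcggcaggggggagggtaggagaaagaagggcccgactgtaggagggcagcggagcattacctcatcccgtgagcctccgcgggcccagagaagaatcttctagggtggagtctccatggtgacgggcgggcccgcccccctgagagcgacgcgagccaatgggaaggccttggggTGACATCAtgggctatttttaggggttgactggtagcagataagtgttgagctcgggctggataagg

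Matches to ATF and cAMP response type sites were found near the starts of several members. Promoter windows from RefSeq were used for 8 of the 10 members, all but FOSL1 and MYC. They were 9 in all since 2 entries, at different annotated starts, were used for ATF3. Any other start of ATF3 was not examined. Each window ran from 250 bases before to 50 after the annotated start. FOSL1 had no entry, and no member entry on chromosome 8, where MYC lies, was used. TGACGT was found for 5 members (FOS, FOSB, FOSL2, JUND and EGR1), and in 7.98% of 35116 promoter windows of the same length. In FOS it lay at -64 to -59 from the start, in FOSB at -60 to -55 and in FOSL2 at -66 to -61. EGR1, outside the FOS family, held it at nearly the same distance, -67 to -62, and also at -136 to -131. JUND held it at -87 to -82 and, as overlapping matches on both strands, inside a full TGACGTCA at -200 to -193, a motif found in 1.85% of windows. TGACNTCA, which includes TGACGTCA, was found for 3 members (JUN at -67 to -60, JUND, and ATF3 at its first start at -123 to -116) and in 7.72% of windows.

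The AP-1 consensus TGANTCA was found in 1 member window, that of FOSL2 at 5 to 11 after the start, and in 7.71% of all windows. The CArG box, to which the serum response factor binds, was found for EGR1 alone among the 8 members with windows, at -105 to -96 and -83 to -74, and in 1.29% of all windows. TATAAA was found close before the start of FOS, FOSB and JUNB, from -33 to -25, and farther away at the second ATF3 start, against 11.5% of windows anywhere in the window. CACGTG, the E-box bound by MYC with MAX, was found for 0 of these 8 members, against 7.26% of windows. The member windows held 46.3% to 77.0% G and C, against a median of 58.7% over all windows, with JUND at the upper end. Of the 4 genes low in replicate 3, FOSB, FOSL2 and JUND held TGACGT and JUNB did not. Among the remaining members with windows, FOS and EGR1 held it and JUN and ATF3 did not. FOSB, JUNB and JUND lie on chromosome 19. The share of all genes on that chromosome was not counted, and a link between chromosome and replicate 3 was not tested. These matches describe the printed letters, no binding was measured, and a motif without a match is absent from these windows only.

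**Figure D4:**
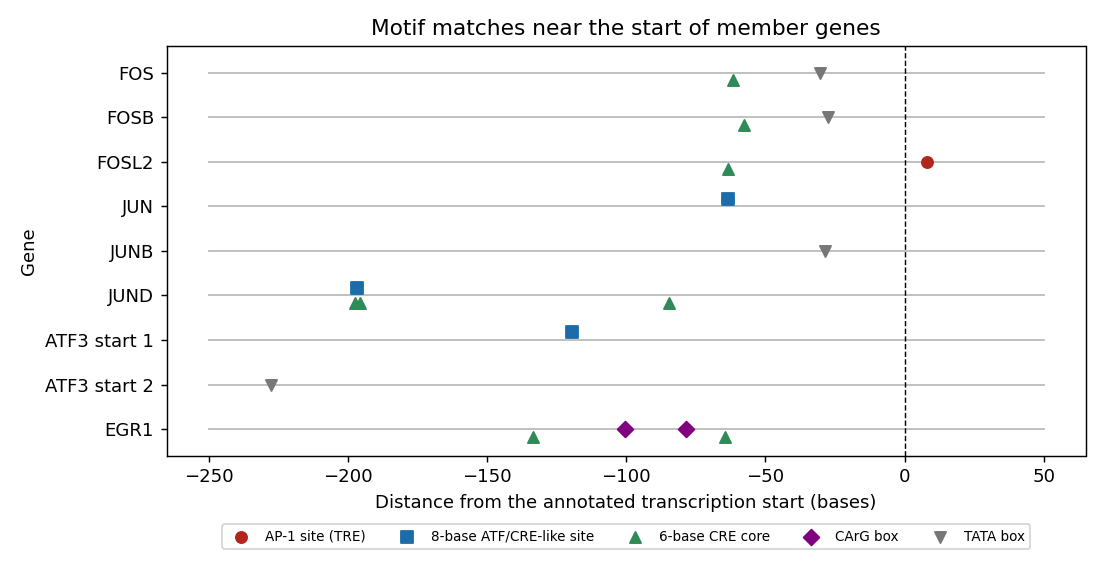
Matches to 5 motifs on either strand, drawn by distance in bases from the annotated start (dashed line), for 9 promoter windows of 8 members: AP-1 site TGANTCA, ATF/CRE-like site TGACNTCA, CRE core TGACGT, CArG box, and TATA box TATAAA. The CRE core of FOS, FOSB and FOSL2 lies between -66 and -55, and EGR1 has a match at -67 to -62. EGR1 alone shows CArG boxes.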

How the data were processed

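Total RNA of 3 cultures of 1 RRAS2 knockdown pool was extracted with Trizol and labelled with biotin for Affymetrix arrays by the standard protocol, according to the labels. The authors deposited 1 value for each of 24916 genes and each array, made with RMA and the affy package, per the submitters' processing notes. The deposited values were read as log2, which the table does not state and their range does not contradict. RMA pulls arrays towards each other and compresses differences between dim signals. The sources used here name no array model, probe definition or genome build. The number of arrays limits the precision.

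The mean, SD and range over 3 arrays were computed for every gene, and each member's range was set against genes in the same decile of mean level. No test was made, since there is 1 group. The 10 identifiers came paired with symbols in the list that defines the set. Among 59792 RefSeq genes, 0 carried an Ensembl identifier, so RRAS2, cell line markers and a list of further immediate early genes, fixed by symbol, were not used. No likeness to other genes was computed, because a correlation needs at least 6 samples. All 10 members are named. The members, lists and motifs were chosen with earlier results of these data known. Counting code was tested on simulated data with shifts larger than any member's range. That test does not bear on the smaller limits used here. Python 3.11.15, numpy 2.4.6, pandas 2.3.3, matplotlib 3.10.9, R 4.3.3 and limma 3.58.1 were used. Alternatives were quantile, median and cyclic loess scaling, other limits, other comparison genes and leaving out each replicate.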

Additional observations from a re-analysis of the deposited data

How the results depend on the processing

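Quantile, median and cyclic loess scaling moved a member's mean by at most 0.0042 log2 units and its range by at most 0.036. Of 30 such ranges 28 moved by less than the SD. The other 2 were of FOS, at 0.029 units as deposited, 0.059 with arrays centred on their medians, where JUN was narrower at 0.045, and 0.045 with cyclic loess. Each scaling gave 9 members above the median, 4 with a range over 0.25 units and 7 lowest in replicate 3 (the last count under alternatives chosen after seeing the data). The 9 members above the median became 8 when each array's mean was the limit. With 1 replicate left out, the count over 0.25 units was 0 to 4 and the median range of members 0.086 to 0.12, both lowest without replicate 3. Fewer arrays give smaller ranges by construction. With the limit at 0.5 units the count was 0. Replacing the decile of genes by the 1000 nearest in level moved a member's share by at most 8.84 percentage points, to 58.7% for FOSL1, and gave 8.7% for JUN against 14.5%. No paired analysis was possible because there is 1 group. The summarised values hold no measure of signal over background.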
